A study of Mus musculus with 31 samples.

Results

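Of 96670 regions of accessible chromatin called in non-neuronal cells of the uninjured mouse spinal cord, 5173 (5.35%) were open to a similar degree in 4 pools of cell classes, and these evenly open peaks are described here. They were chosen by their own signal. Transposase cut sites were summed over the cells of each pool of the authors' classes, named EP (EP1, EP2 and EP3), ACNT (ACNT1 and ACNT2), OPC, and VP (VEC and PER), and each pool was scaled by its total of cut sites in peaks to CPM. A peak was taken where all 4 pools reached at least 20 CPM and the highest pool was at most 2 times the lowest. The levels in the pools are therefore a description of how the peaks were selected, with no test. What the rule did not use was the position of the peaks, the sequence at the gene starts they cover, and the RNA of their genes.

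The accessibility data came from 1 single-cell ATAC sample on the C57BL/6 background, prepared by digestion and flow cytometry. RNA came from 12 bulk Smart-seq2 libraries of sorted ependymal cells, also on the C57BL/6 background. They form 6 groups of 2 libraries, Foxj1-Olig2-tdT and Foxj1-tdT cells without injury and 1 and 5 dpi, taken to be days past the lesion. Both lines are named for Foxj1, a transcription factor gene of ciliated cells such as ependymal cells, and for the red fluorescent reporter tdT, which both groups carry. The first also carries Olig2 in its name, which encodes an oligodendrocyte lineage transcription factor. Neither the alleles nor the source of the replicates is spelled out in the labels. If replicates shared an animal, the p-values reflect technical spread between libraries alone. Single-cell RNA counts were pooled over the cells that carry 1 of 5 library codes, because no label links a code to 1 of the 6 samples (both lines uninjured and at 2 and 4 wpi, read as weeks after injury). The 12 bulk ATAC libraries of the series were not used here.

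Chromatin is open where nucleosomes are displaced and regulatory proteins have access to the DNA. Enhancers tend to be open in some cell types only, while the promoters of housekeeping genes, which every cell needs for protein synthesis, energy supply and upkeep of its genome, tend to be open everywhere. Many such promoters lie in CpG islands, stretches rich in G and C in which the dinucleotide CG has not been lost through methylation, and they often lack a TATA box. An open promoter permits transcription but does not fix its rate.

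The sequences below show the promoters of 8 genes that the results turn on, each as the 120 bases before the start in RefSeq on GRCm38.p6, written in the direction of transcription. Mpzl1, Srf and Ptges3 have the most nearly equal peaks at a gene start, Prkar1a and Ywhae are among the steadiest RNAs, and Vcan, Cdt1 and Mia are among the RNAs that changed most. Capitals mark matches on either strand to 10 short motifs. GGGCGG is a motif of Sp and KLF factors, and CCAAT is that of NF-Y. ETS factors were searched as CCGGAAG and YY1 as AAGATGG. The letters for NRF1 were GCATGCGC, those for the cyclic AMP response element (CRE) were TGACGTCA, and those for the E-box were CACGTG. The TATA box was searched as TATAAA, the AP-1 motif as TGANTCA and the motif of RFX factors as GTTGCCA.
Mpzl1, chr1:165634542-165634661, minus strand: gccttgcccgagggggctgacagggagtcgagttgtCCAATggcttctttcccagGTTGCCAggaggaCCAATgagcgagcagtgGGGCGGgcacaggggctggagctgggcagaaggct
Srf, chr17:46556163-46556282, minus strand: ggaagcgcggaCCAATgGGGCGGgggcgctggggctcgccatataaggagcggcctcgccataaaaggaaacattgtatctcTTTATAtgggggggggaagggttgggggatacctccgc
Ptges3, chr10:128058862-128058981, plus strand: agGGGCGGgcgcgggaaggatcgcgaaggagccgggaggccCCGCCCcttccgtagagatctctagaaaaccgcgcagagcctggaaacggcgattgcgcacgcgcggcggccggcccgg
Prkar1a, chr11:109650422-109650541, plus strand: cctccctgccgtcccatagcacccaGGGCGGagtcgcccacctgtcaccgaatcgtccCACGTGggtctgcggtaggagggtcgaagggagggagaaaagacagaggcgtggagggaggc
Ywhae, chr11:75732767-75732886, plus strand: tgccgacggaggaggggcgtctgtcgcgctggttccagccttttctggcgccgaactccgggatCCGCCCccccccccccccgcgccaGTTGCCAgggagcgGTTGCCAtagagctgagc
Vcan, chr13:89742513-89742632, minus strand: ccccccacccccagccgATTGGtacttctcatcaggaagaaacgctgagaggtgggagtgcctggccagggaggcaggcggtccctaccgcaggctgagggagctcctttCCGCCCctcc
Cdt1, chr8:122567895-122568014, plus strand: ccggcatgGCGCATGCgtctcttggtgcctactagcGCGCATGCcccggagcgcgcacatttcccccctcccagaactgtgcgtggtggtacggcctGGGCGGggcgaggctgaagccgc
Mia, chr7:27181150-27181269, minus strand: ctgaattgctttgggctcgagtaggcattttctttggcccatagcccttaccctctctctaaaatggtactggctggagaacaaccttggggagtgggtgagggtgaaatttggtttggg

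Of these 8 stretches, 7 held GGGCGG on 1 or the other strand, and 3 held CCAAT. Srf held TATAAA on the opposite strand, Cdt1 held GCATGCGC 2 times, and Ywhae held GTTGCCA 2 times, a motif of RFX factors. Mia held none of the 10 motifs and 1 CG in 120 bases, against 19 in Ptges3. Prkar1a has 6 starts in the table, of which 1 is shown. A match describes the letters, and no match says only that these letters are not in the stretch shown.

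The pools differed in size. EP held 754 cells and 24882631 cut sites, ACNT 173 cells and 3384325, OPC 67 cells and 2541658, and VP 90 cells and 1398896. The floor of 20 CPM was therefore 498 cut sites in EP and 28 in VP, with exact 95% Poisson intervals of 18.3 to 21.9 CPM and 13.3 to 28.9 CPM that cover counting error only. The class names were checked by the summed CPM of peaks at the starts of marker genes. Ependymal markers (10 genes, all with a peak) summed to 723 to 844 in EP1, EP2 and EP3 and to 279 to 361 in the other classes, and astrocyte markers to 793 and 696 in ACNT1 and ACNT2 and to 158 to 278 elsewhere. Endothelial markers summed to 499 in VEC and to at most 54.7 elsewhere, and pericyte markers to 206 in PER and to at most 129 elsewhere. Oligodendrocyte progenitor markers summed to 386 in OPC but also to 328 and 279 in ACNT1 and ACNT2. OPC further held 207 CPM at neuron markers, against 29.7 to 62.4 in the other classes. PER held 184 CPM at fibroblast markers, against 30.7 to 80.7 elsewhere. At microglia markers, of which only 3 of 8 had a peak, PER held 80.6 CPM, against 17.2 to 46.0 elsewhere.

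Evenness was rarely perfect within the limits of the rule. The ratio of highest to lowest pool had a median of 1.63, with 1.33 at the 10% and 1.92 at the 90% quantile, and 139 peaks (2.69%) stayed at or below 1.2. The level of the lowest pool had a median of 42.3 CPM, and only 9 peaks exceeded 200 CPM in every pool. The pools did not share the extremes equally: VP was the highest pool in 2519 peaks (48.7%), and EP was the lowest in 3394 (65.6%) and the highest in 234 (4.52%). The median peak had 45.3 CPM in EP, 55.0 in ACNT, 56.3 in OPC and 62.2 in VP. The peaks held 27.6% of the cut sites in EP, 34.6% in ACNT, 33.3% in OPC and 37.5% in VP, within 11.5 of the 83.5 megabases covered by all peaks. Cut sites per read pair were 1.47 in EP, 1.27 in ACNT, 1.18 in OPC and 1.04 in VP, so they fell in the order in which the median level of the peaks rose, and their part in that order was not tested.

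**Figure D1:**
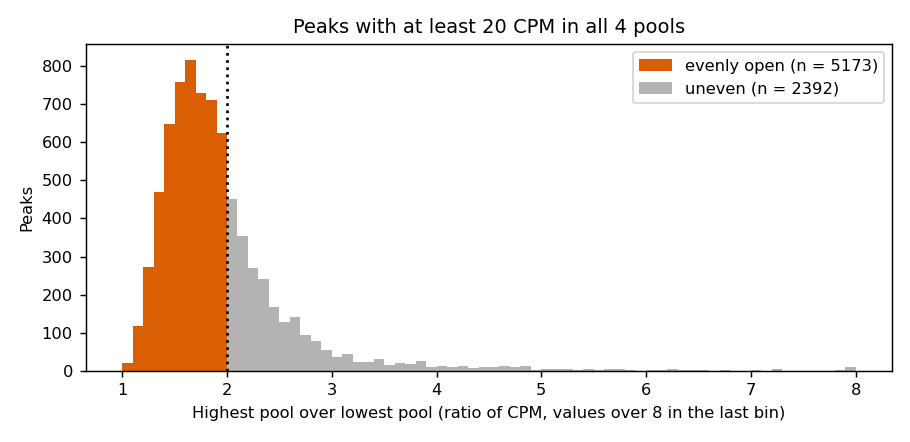
Histogram of the ratio of the highest to the lowest pool (x axis) for peaks with at least 20 CPM in all 4 pools, with the number of peaks on the y axis and the limit of 2 marked. The 5173 evenly open peaks lie at or below the limit, out of 7565 peaks open in all 4 pools, and 7 peaks above 8 are drawn in the last bin.

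The limits cut through a continuous range. Of 7565 peaks with at least 20 CPM in all pools, 68.4% were even. At the ratio limit, the peak at Zbed5 was just inside (33.5, 22.2, 39.7 and 44.3 CPM in EP, ACNT, OPC and VP), while the peak at Mlf2 was just outside (76.3, 149.5, 74.8 and 132 CPM). At the level limit, the peak at Ctnnd1 was just inside with 20.02 CPM in VP, and that at Ankrd35 just outside with 19.97 CPM in EP. When the 8 classes were taken 1 by 1, 1670 of the peaks (32.3%) met the rule in all of them, and the median ratio over 8 classes was 2.21. VEC held only 456548 cut sites and PER 942348, so this ratio also holds their counting error, whose share was not tested. Outside OPC, between 93.4% (VEC, the class with the fewest cut sites) and 99.4% (EP2) of the peaks kept at least 20 CPM in a class. OPC is a pool by itself, so its 100% follows from the rule.

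The most nearly equal peaks, among the 2076 with at least 100 cut sites in every pool, lay at genes of different roles. The peak at the start of Mpzl1, a cell surface glycoprotein gene (chr1:165633333-165635501), had 79.4, 80.4, 78.7 and 78.6 CPM in EP, ACNT, OPC and VP. That at Srf, the transcription factor serum response factor, had 161, 155, 161 and 156 CPM. Ptges3, a co-chaperone of Hsp90 also known as p23, had 74.5, 71.5, 72.4 and 72.2 CPM, and Camk2d, a calcium-dependent protein kinase subunit, had 109, 108, 114 and 112 CPM. The fifth, nearest to Txndc11, lay inside a gene but at no start (91.5, 88.1, 92.9 and 87.2 CPM). In each of these 5 the 95% intervals of the pools overlapped, which follows from picking the smallest ratios and tests nothing.

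**Figure D2:**
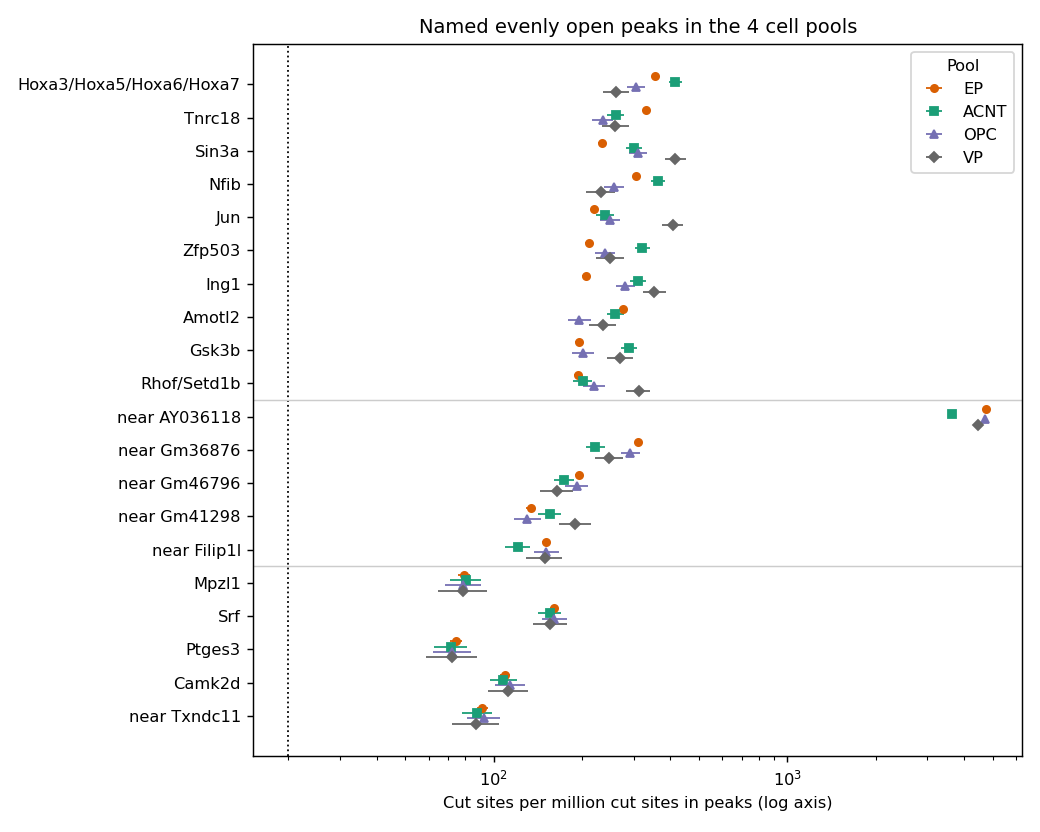
Level (CPM, logarithmic x axis, dotted line at 20 CPM) of the named evenly open peaks in the EP, ACNT, OPC and VP pools, with exact 95% Poisson intervals as bars. The peaks chosen as most even, such as Mpzl1 with 78.6 to 80.4 CPM, show overlapping intervals in all pools, which follows from that choice. Jun, with 219.7 CPM in EP and 407 in VP, has the largest ratio of the 10 highest at a start (1.85).

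CPM are summed over the whole peak, so wide peaks reach higher levels. The highest evenly open peak at a gene start was 23282 bases wide (chr6:52199930-52223211), covered the starts of Hoxa3, Hoxa5, Hoxa6 and Hoxa7, transcription factors that mark position along the body axis, and had 355 CPM in EP, 416 in ACNT, 306 in OPC and 262 in VP. Within VP it was uneven, with 83.2 CPM in VEC and 348 in PER, so that pooling VEC with PER hid this difference. Nfib, a transcription factor of glial development, had 305, 363, 257 and 232 CPM in the same order of pools. Sin3a, the scaffold of a histone deacetylase complex, had 233, 300.2, 309.6 and 416 CPM. Jun, a subunit of the AP-1 transcription factor (chr4:95044740-95055315), had 219.7, 239, 249 and 407 CPM. The others among the 10 highest lay at Tnrc18, Zfp503, Ing1 (a chromatin reader), Amotl2 (a regulator of Hippo signalling), Gsk3b (a kinase of Wnt and insulin signalling), and Rhof with the histone methyltransferase Setd1b.

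The evenly open peaks sat at gene starts. A start of a protein-coding gene lay within 1000 bases of, or inside, 4650 of them (89.9%), against 80.2% of the 2392 peaks that were open in all pools but uneven and 15.1% of all peaks. With the starts of long non-coding RNA genes the share was 92.6% (4790 peaks), against 83.9% of the uneven peaks and 18.7% of all. Their centres lay a median of 204 bases from the nearest start, against 284.5 and 13314 bases. Starts of 2 or more coding genes fell in 772 of them (14.9%), against 10.2% and 1.45%, and 456 (8.82%) held a divergent pair of coding genes, against 5.43% and 0.744%. They were wide, with a median of 1832 bases against 1970 and 587. On the chromosomes they made up between 4.30% (chromosome 14) and 7.13% (chromosome 19) of the peaks, and 0 of 8 on Y. The distances rest on RefSeq gene starts, and exons or introns were not annotated here.

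**Figure D3:**
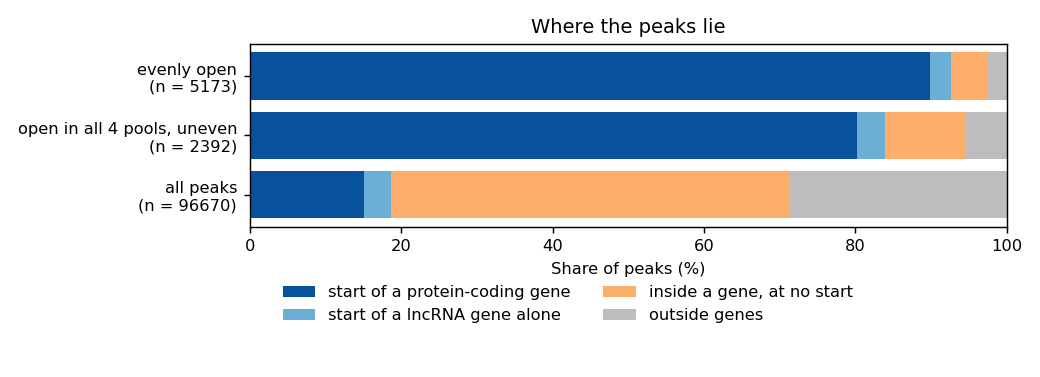
Share of peaks (percent, x axis) at the start of a coding gene, at the start of a long non-coding RNA gene alone, inside a gene at no start, and outside genes, for the evenly open peaks, the uneven peaks open in all pools, and all peaks. Starts of coding genes take 89.9% of the evenly open peaks, against 80.2% of the uneven and 15.1% of all peaks.

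Of the members away from any RefSeq start used here, 254 lay inside genes and 129 outside. A peak at a start missing from that annotation would be counted among them. The highest of them, at chr17:39842751-39849071, had 4734 CPM in EP, 3634 in ACNT, 4721 in OPC and 4468 in VP, the highest level of all members. It overlaps Rn18s-rs5, a pseudogene related to the 18S ribosomal RNA, and the long non-coding RNA gene AY036118. Reads from the many copies of the ribosomal RNA genes could align there, which was not tested. The next were 928 bases wide each, inside Gm36876 (309, 222, 292 and 247 CPM) and outside genes on chromosome 3 (195, 174, 192 and 164 CPM). No peak was left out here for repeated sequence, and its share in these levels was not tested. A peak inside Ywhaz had 134, 155, 130.2 and 189 CPM, and 1 inside Filip1l and Cmss1 had 151, 121, 151 and 149 CPM.

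The promoters under these peaks were rich in CG. RefSeq windows from 250 bases before to 50 after the start were matched for 5821 starts of 5010 genes in an evenly open peak. Their median GC content was 64.0%, against 63.3% at the 2463 starts in uneven peaks, 58.0% at 7653 starts in other peaks and 47.0% at 16914 starts in no peak. The ratio of observed to expected CG had medians of 0.85, 0.80, 0.60 and 0.20 in the same order. Counting windows with a ratio of at least 0.6 and a GC content of at least 50% as CpG-rich, 84.8% of the windows in evenly open peaks qualified, against 76.2%, 46.2% and 3.84%.

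Motif shares were compared between sets of windows with no matching for base composition. GGGCGG stood in 73.1% of the windows in evenly open peaks, against 70.6% in uneven peaks and 35.7% of all 32851 windows, and CCGGAAG in 19.2%, against 18.5% and 8.86%. GCATGCGC stood in 6.99%, against 5.16% and 2.71%, and AAGATGG, which holds no CG, in 8.35%, against 5.81% and 6.34%. CCAAT stood in 42.5%, against 37.0% and 37.4%. TATAAA was found in 4.83%, against 5.32% and 13.6%, and TGANTCA in 3.33%, against 4.02% and 7.81%. TGACGTCA stood in 3.52% (3.74% and 1.79%), CACGTG in 10.8% (11.0% and 7.15%) and GTTGCCA in 4.11% (4.02% and 4.38%). GGGCGG varied little with evenness: it stood in 73.5% of 909 windows whose peak had a ratio under 1.4, and in 73% of 2374 with a ratio from 1.7 to 2. CCGGAAG stood in 16.1% of the windows in the most even bin and 20.6% in the least even.

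The share of genes with an evenly open peak differed widely between gene lists, which were chosen with earlier results of these data known. In all, 6241 genes had such a peak at a start, 5401 of them protein-coding, which is 24.7% of the 21900 coding genes annotated, while genes with such a peak were 36.6% of the 14466 annotated genes tested in the bulk RNA. The share was 81.8% for chaperones (18 of 22), 77.4% for chromatin regulators (24 of 31), 74.1% for splicing factors (20 of 27), 65.4% for translation factors (17 of 26) and 63.6% for cytosolic ribosomal proteins (14 of 22). It was 62.5% for DNA repair (15 of 24), 59.1% for the nuclear pore (13 of 22), 56.2% for classic reference genes (9 of 16), 55.6% for RNA polymerase II and its general factors (15 of 27), and 50% each for the proteasome (15 of 30) and aminoacyl-tRNA synthetases (10 of 20). Lower shares were seen for cholesterol synthesis (10 of 21, 47.6%), the respiratory chain (11 of 24, 45.8%), vesicle trafficking (11 of 26, 42.3%), mitochondrial ribosomal proteins (7 of 18, 38.9%) and the cell cycle (9 of 24, 37.5%). Immediate early genes, which respond to stimuli within minutes, had 3 of 22 (Jun, Klf6 and Ier5), and another 14 of them had a peak that was open in all pools but uneven. Of the cell type markers, 1 of 10 ependymal markers had an evenly open peak (Mia), and 0 of the markers in the other 8 lists.

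Nearly all of these genes had a UMI in the single-cell RNA, as did those of uneven peaks. In 2923 single cells with 20545404 UMIs, counted per molecule and not scaled by gene length, 5305 of 5324 matched coding genes with an evenly open peak (99.6%) had at least 1 UMI, against 99.4% at uneven peaks, 92.0% at other peaks, 28.9% with no peak and 74.9% of all coding genes. A single UMI can come from free RNA, whose share was not measured. Their median level was 25.3 UMI CPM, scaled like the cut sites but over all UMIs (quartiles 11.0 and 61.2), against 20.1 for genes of the uneven peaks, 4.7 for genes at other peaks and 0.0 for genes with no peak at their start. At least 10 UMI CPM were reached by 76.8%, against 68.5%, 38.2% and 2.84%. Levels ranged widely among genes with an evenly open peak: Hsp90ab1, a cytosolic Hsp90, had 3184 UMI CPM and Brca1, a DNA repair gene, 2.92. Both were picked with their values seen. A peak can also cover the start of another gene, so its openness cannot always be assigned to the gene named. The median level rose modestly with the height of the peak, a trend that was not tested. It was 22.9 UMI CPM for genes whose lowest pool had 20 to 30 CPM and 25.1 at 30 to 50. At 50 to 80 CPM it was 26.8, and at 80 CPM and over 29.5.

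In the bulk libraries, 5296 of the 6241 genes had an entry and 5290 passed the filter of at least 10 normalized counts in 2 or more libraries. Of the 945 without an entry, 825 were long non-coding RNA genes. No gene with an entry was listed at 0 in all 12 libraries, and 4981 (94.1%) were above 0 in every library, against 74.7% of the 16301 genes in the table. In these sorted samples, fewer cells of a type and less RNA per cell cannot be told apart. A mean under 10 was found for 39 coding genes. The 5 of these with the highest peaks were Lpxn, Ccr10, Plag1, Pmel and H4c1, and each shared its peak with the start of at least 1 other gene, such as Zfp91 beside Lpxn and Rab5b beside Pmel. Lpxn was listed at 0 in 9 libraries and read 25.4 in 1 Foxj1-Olig2-tdT library at 1 dpi and 36.0 and 29.9 in Foxj1-tdT cells at 1 dpi.

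Across the 6 groups the RNA of these genes varied less than that of other genes in size. The range of the 6 group means, on the log2(value + 1) scale, had a median of 1.4 (quartiles 0.94 and 2.11), against 1.68 for the 2055 genes of uneven peaks, 2.99 for 5718 genes at other peaks, 3.32 for 1403 genes with no peak and 1.98 for all 15811 genes tested. The range stayed under 1 for 1528 of the genes (28.9%), against 17.4% of all. Their bulk level was also higher, with a median of 542 normalized counts, against 272 for all, not divided by gene length. Within levels the gap varied. At means of 30 to 100 the median range was 3.45, against 4.24 for all genes of that level. At 100 to 300 the median range was 1.80, against 2.12, and at 300 to 1000 it was 1.32 against 1.44. In the next level up it was 1.03 against 1.16, and in the highest 1.02 against 1.27. Under 30 it was larger, 4.57 against 3.63. Among the members, more even peaks did not go with steadier RNA, with medians of 1.49 at ratios under 1.4, 1.36 at 1.4 to 1.7 and 1.42 at 1.7 to 2.

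**Figure D4:**
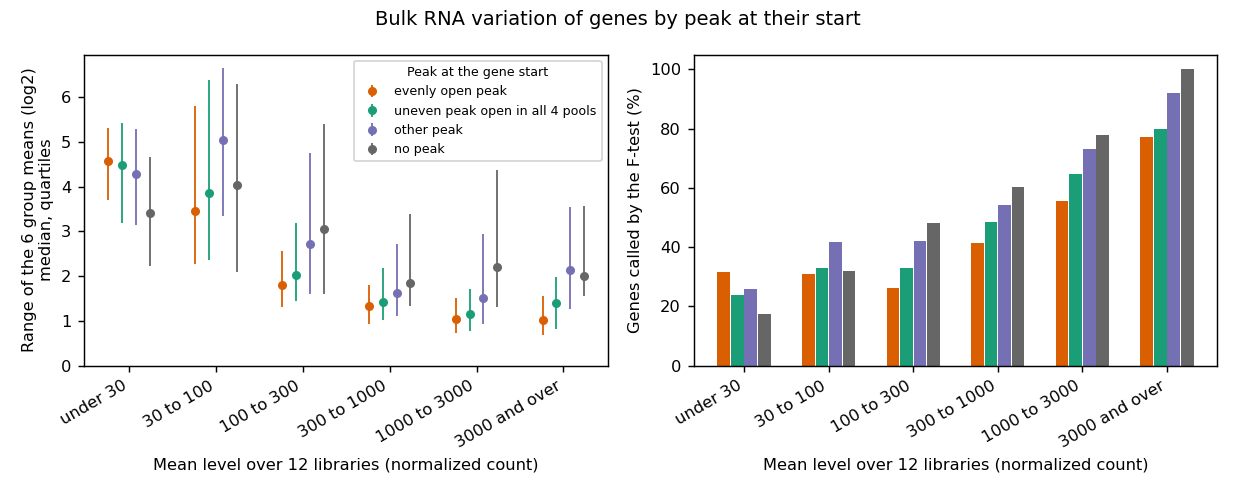
Range of the 6 group means of bulk RNA (log2 units, y axis) on the left, as medians with quartiles, and share of genes called by the F-test (percent) on the right, by mean level (x axis), for genes with an evenly open peak, an uneven peak, another peak or no peak at their start. From a level of 30 upwards the evenly open medians are the lowest, for example 1.80 at 100 to 300 against 2.02 at uneven peaks, and under 30 they are the highest (4.57).

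Smaller variation did not mean no change. Of the 5290 genes, 2271 (42.9%) differed between at least 2 of the 6 groups (limma F-test, adjusted p under 0.05), and 41.5% of all 15811 tested genes did so. The share over all levels is near the background. Within levels, fewer of the members were called at means of 100 to 300 (26.2%, against 35.0% of all genes of that level), and at 300 to 1000 (41.4%, against 47.4%). The same held at 30 to 100 (30.8% against 34.9%) and in the next 2 levels up (55.6% against 62.9%, and 77.1% against 81.8%), while under 30 the members had the larger share, 31.5% against 19.1%. These shares are given with no test. The uninjured Foxj1-tdT libraries were closer to each other (r = 0.989 across genes) than any other pair (0.864 to 0.928), and with this pair entered as 1 library the count was 1194 (22.6%), against 23.3% of all genes. All contrasts below share these 12 libraries, and contrasts of 1 line share its uninjured libraries.

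After injury, the shares of evenly open genes that changed were near those of all genes tested. At 1 dpi in Foxj1-Olig2-tdT cells 409 genes (7.73%) changed, against 8.09% of all, with 286 higher (5.41%, background 5.93%) and 123 lower (2.33%, background 2.16%). At 5 dpi in Foxj1-Olig2-tdT cells 1650 (31.2%) changed, against 31.2% of all, with 892 higher (16.9%, background 17.2%) and 758 lower (14.3%, background 14.0%). At 1 dpi in Foxj1-tdT cells 1523 (28.8%) changed, against 27.4%, with 905 higher (17.1%, background 15.4%) and 618 lower (11.7%, background 12%). At 5 dpi in Foxj1-tdT cells 1240 (23.4%) changed, against 23.0%, with 732 higher (13.8%, background 13.8%) and 508 lower (9.60%, background 9.21%). Entering the near-identical uninjured Foxj1-tdT pair as 1 library gave 218, 1344, 596 and 400 genes in the same order.

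Between the lines, Foxj1-Olig2-tdT against Foxj1-tdT, 419 genes (7.92%) differed in uninjured cells, against 7.79% of all, with 281 higher (5.31%, background 4.72%) and 138 lower (2.61%, background 3.07%). At 1 dpi 74 (1.4%) differed, against 1.84%, with 41 higher (0.775%, background 1.29%) and 33 lower (0.624%, background 0.55%). At 5 dpi 435 (8.22%) differed, against 9.23%, with 197 higher (3.72%, background 3.36%) and 238 lower (4.5%, background 5.88%). With the near-identical pair as 1 library the counts were 61, 14 and 238. The members' share of higher genes at 1 dpi and of lower genes at 5 dpi was below the background, and these gaps were not tested.

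The RNAs of smallest spread came from genes of varied roles. Among members with a mean of at least 50, the 10 smallest SDs of the 12 log2 values lay between 0.10 and 0.14. Prkar1a, the regulatory subunit of protein kinase A, had in Foxj1-Olig2-tdT cells 4946.7 and 4571.9 uninjured, 4568.5 and 4495.5 at 1 dpi and 4603.7 and 5581.3 at 5 dpi. Foxj1-tdT cells had 5266.2 and 5208.2, 5148.8 and 4991.7, and 5175.9 and 5338 at the same times. Its peak at chr11:109649951-109652032 had 35.0, 48.5, 66.5 and 56.5 CPM in EP, ACNT, OPC and VP, close to the ratio limit, so its chromatin was among the less even. Ywhae, a 14-3-3 adaptor protein gene, lay between 11941 and 16290.7 with a median of 13880.5 over the 12 libraries, and St13, an Hsp70 cofactor, between 5381.8 and 6502.5 with a median of 5719. The complex I subunit genes Ndufb3 (1973.4 to 2518.6) and Ndufa2 (2888.2 to 3792) and the complex II subunit gene Sdhc (2572.1 to 3484.7) were also among them. So were Bcap31 and Rtn3 of the endoplasmic reticulum (2998.5 to 3997.1 and 4026.8 to 5592.5), the ubiquitin ligase subunit gene Rnf7 (2187.9 to 2983) and the centrosomal centrin gene Cetn3 (4741.1 to 6927.7). None of the 10 passed the F-test (limma, adjusted p from 0.125 for Ywhae to 0.921 for Bcap31), which does not show that they were constant, and low spread was the reason they were picked.

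Ribosomal protein genes of the set mostly rose after injury, and other translation genes did so in part. Genes of these lists without an evenly open peak changed too. By the F-test, 13 of 14 ribosomal protein genes of the set changed, and 8 of 8 tested without such a peak. For translation factors it was 15 of 17 and 7 of 9, and for aminoacyl-tRNA synthetases 9 of 10 and 6 of 10. Of all genes tested, 5.93% and 17.2% rose at 1 and 5 dpi in Foxj1-Olig2-tdT cells, and 15.4% and 13.8% in Foxj1-tdT cells. All of the 14 ribosomal protein genes but 1 rose at 1 dpi in Foxj1-Olig2-tdT cells (13), and 13 rose there at 5 dpi, while in Foxj1-tdT cells 13 rose at 1 dpi and 10 at 5 dpi, and 0 fell in any of these. With the near-identical pair as 1 library the counts were 13, 13, 13 and 7. Rps2, a protein of the small ribosomal subunit, had in Foxj1-Olig2-tdT cells 6450.1 and 6116.5 uninjured, 15486.3 and 11750.9 at 1 dpi and 13043.2 and 12355.8 at 5 dpi. Foxj1-tdT cells had 5306.5 and 5135.7, 24321 and 21486.7, and 11187.6 and 10394.7. Injured and uninjured libraries did not overlap in either line, and the log2 fold change at 1 dpi was 1.10 ± 0.14 (SE) in Foxj1-Olig2-tdT cells and 2.13 ± 0.14 in Foxj1-tdT cells (limma, adjusted p = 0.00113 and 2.08e-05). Ribosomal protein genes have processed pseudogenes, so their reads may be split. Of 17 translation factors, 6 rose at 1 dpi and 12 at 5 dpi in Foxj1-Olig2-tdT cells, where 0 and 2 fell, and 13 rose at 1 dpi and 8 at 5 dpi in Foxj1-tdT cells, where 0 and 1 fell. With the near-identical pair as 1 library 8 and 5 were called in Foxj1-tdT cells, in either direction. Eif4a1, the RNA helicase of translation initiation, rose by a log2 fold change of 2.16 ± 0.27 at 1 dpi and 2.71 ± 0.27 at 5 dpi in Foxj1-Olig2-tdT cells (limma, adjusted p = 0.0012 and 6.01e-05). Eif5 fell there at 5 dpi (log2 fold change -0.92 ± 0.21, limma adjusted p = 0.00783). Of 10 aminoacyl-tRNA synthetases, 2 rose at 1 dpi and 5 at 5 dpi in Foxj1-Olig2-tdT cells, and 8 and 2 in Foxj1-tdT cells. With the pair as 1 library these were 1 and 5 in Foxj1-Olig2-tdT cells, and 5 and 1 in Foxj1-tdT cells.

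The 9 cell cycle genes with an evenly open peak all passed the F-test, against 41.5% of all genes tested at any RNA level. So did all 15 cell cycle genes tested without such a peak, so the change was not particular to the members. Of the 9 members, 6 rose in Foxj1-Olig2-tdT cells and 9 in Foxj1-tdT cells at 1 dpi. At 5 dpi 9 rose in Foxj1-Olig2-tdT cells and 6 in Foxj1-tdT cells. With the near-identical pair as 1 library these counts were 3 and 5 at 1 dpi and 9 and 2 at 5 dpi. Pcna, the sliding clamp of DNA replication, had in Foxj1-Olig2-tdT cells 539.6 and 559.8 uninjured, 4076.9 and 3440.2 at 1 dpi and 4252.6 and 2774 at 5 dpi. Foxj1-tdT cells had 782.4 and 741.4, 6108.6 and 6088, and 1858.3 and 2705.5. Its log2 fold change at 1 dpi was 2.77 ± 0.23 in Foxj1-Olig2-tdT cells and 3.0 ± 0.23 in Foxj1-tdT cells (limma, adjusted p = 0.00019 and 4.28e-05). Its peak had 65.4, 54.4, 84.2 and 97.9 CPM in EP, ACNT, OPC and VP. Mcm5, a subunit of the replicative helicase, was higher in Foxj1-Olig2-tdT than in Foxj1-tdT cells at 5 dpi, at 989.1 and 723.6 against 270.6 and 135.7 (log2 fold change 2.14 ± 0.43, limma adjusted p = 0.0144).

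The other lists changed to differing degrees, and 41.5% of all genes tested passed the F-test. That share rose with RNA level, from 19.1% in the lowest level to 62.9% and 81.8% in the 2 highest. The lists were not matched for level, so whether they changed more than genes of like level was not tested. The F-test was passed by 10 of 15 proteasome genes, 13 of 20 splicing factors and 12 of 17 chaperones. Tested genes of these lists without such a peak gave 11 of 15, 3 of 7 and 2 of 4. Of the members, 7 of 10 cholesterol synthesis genes and 7 of 15 DNA repair genes passed, against 7 of 11 and 4 of 9 without such a peak. The count was 5 of 11 for the respiratory chain, 6 of 11 for vesicle trafficking and 2 of 7 for mitochondrial ribosomal proteins. Without such a peak it was 9 of 13, 6 of 15 and 4 of 11. Shares of all genes per contrast are given above. Of 13 nuclear pore genes, 1 passed the F-test, against 6 of 9 tested without such a peak. Nup98, a member, lay between 448.3 and 878 over the 12 libraries. Of 24 chromatin regulators 10 passed it, against 4 of 7 without such a peak. Arid1a, a subunit of the BAF remodelling complex, was not among those that passed (limma, adjusted p = 0.218). Of 15 proteasome genes, 0 changed at 1 dpi and 7 rose at 5 dpi in Foxj1-Olig2-tdT cells, while 9 rose at 1 dpi and 0 changed at 5 dpi in Foxj1-tdT cells, where 0 of the 9 were called with the near-identical pair as 1 library. Of 20 splicing factors 1 rose at 1 dpi and 6 rose and 2 fell at 5 dpi in Foxj1-Olig2-tdT cells, and 8 rose at 1 dpi and 2 rose and 2 fell at 5 dpi in Foxj1-tdT cells. Of 17 chaperones tested, 1 rose and 0 fell at 1 dpi in Foxj1-Olig2-tdT cells and 9 rose and 0 fell in Foxj1-tdT cells, of which 0 and 6 were called with the pair as 1 library. At 5 dpi 1 rose and 2 fell in Foxj1-tdT cells, with 1 called with the pair as 1 library. In Foxj1-Olig2-tdT cells 1 rose and 4 fell at 5 dpi, among them Hsph1 (log2 fold change -1.87 ± 0.28, limma adjusted p = 0.000774). Of 15 DNA repair genes 2 rose at 1 dpi in Foxj1-Olig2-tdT cells and 8 in Foxj1-tdT cells, and of 10 cholesterol synthesis genes 3 and 5. With the pair as 1 library these were 1 and 3 for DNA repair and 0 and 3 for cholesterol synthesis, and 4 splicing factors were called at 1 dpi in Foxj1-tdT cells and 1 at 5 dpi. Reference genes were no exception: of 9, 7 passed the F-test, and 5 of 7 tested without such a peak. Actb, the cytoplasmic actin used as a loading control, had in Foxj1-Olig2-tdT cells 23262.8 and 27992.3 uninjured, 33166.4 and 42616.9 at 1 dpi and 88905.7 and 91202.3 at 5 dpi (log2 fold change at 5 dpi 1.82 ± 0.15, limma adjusted p = 1.62e-05). In Foxj1-tdT cells it read 23666.9 and 24917.7, 49711.3 and 62913.8, and 79691 and 80115.8.

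Among the genes of the highest and most even peaks, RNA moved in either direction. Ptges3 fell at 5 dpi in Foxj1-Olig2-tdT cells, to 5890.8 and 6752.8, against 11833.2 and 11311.5 uninjured (log2 fold change -0.88 ± 0.11, limma adjusted p = 0.000202). Mpzl1 rose there, to 1932.1 and 2399.3, against 864.1 and 991 uninjured (log2 fold change 1.22 ± 0.20, limma adjusted p = 0.00137). Srf lay between 53.5 and 385.1 over the libraries and passed no test (limma F-test, adjusted p = 0.0957). Amotl2 fell at 5 dpi in these Foxj1-Olig2-tdT cells (log2 fold change -1.15 ± 0.28, limma adjusted p = 0.0105). Of the Hoxa genes that share the widest peak, Hoxa7 read between 847.4 and 2707.3 and Hoxa6 between 14.4 and 108.3 normalized counts. In single cells, where levels can be compared between genes, they had 220.3 and 4.96 UMI CPM.

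Of the 3 immediate early genes with an evenly open peak, Klf6, a zinc finger transcription factor, rose at 1 dpi in both lines. In Foxj1-Olig2-tdT cells it read 966.9 and 436 uninjured, 2442.8 and 3006.3 at 1 dpi and 1409.2 and 1892.2 at 5 dpi, and 646.4 and 656, 1860.8 and 3034.9, and 1273.9 and 1141 in Foxj1-tdT cells. The log2 fold change at 1 dpi was 2.06 ± 0.36 in Foxj1-Olig2-tdT cells and 1.87 ± 0.36 in Foxj1-tdT cells (limma, adjusted p = 0.00727 and 0.00428). Jun, with 607 UMI CPM in single cells, lay between 499.9 and 2236.6 normalized counts and did not pass the F-test (limma, adjusted p = 0.0851), nor did Ier5 (limma, adjusted p = 0.145). In the single contrast at 5 dpi in Foxj1-Olig2-tdT cells Jun was higher, at 1555.5 and 2236.6, against 1401.7 and 499.9 uninjured (log2 fold change 1.15 ± 0.39, limma adjusted p = 0.047). It lost that call with the near-identical pair as 1 library (limma, adjusted p = 0.0779).

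Several of the largest changes involved values at or near 0. Vcan, the extracellular matrix proteoglycan versican, had a peak of 54.7, 54.7, 99.5 and 67.9 CPM in EP, ACNT, OPC and VP. Within VP it had 8.76 CPM in VEC and 96.6 in PER, so that pooling made it a member, as it did for Efs (0 and 89.1 CPM in VEC and PER). In Foxj1-Olig2-tdT cells it read 128.3 and 329.3 uninjured, 1007.3 and 1319.7 at 1 dpi and 2322.6 and 2804.7 at 5 dpi. Foxj1-tdT cells had values of 0 and 1.0 uninjured, 224.1 and 234.6 at 1 dpi and 2096.6 and 1030.2 at 5 dpi (limma, adjusted p = 1.78e-05 at 5 dpi). The uninjured lines did not overlap, at 128.3 and 329.3 in Foxj1-Olig2-tdT cells against 0 and 1.0 in Foxj1-tdT cells (limma, adjusted p = 0.000219, and 0.00485 with the near-identical pair as 1 library). Cdt1, a licensing factor of DNA replication, was listed at 0 and 5.9 in uninjured Foxj1-Olig2-tdT cells and read 340.5 and 533.5 at 1 dpi and 278.9 and 296.3 at 5 dpi (limma, adjusted p = 0.000977 at 1 dpi). Cnn2, the actin-binding protein calponin 2, was listed at 0 and 0.8 there without injury and read 61.5 and 12.2 at 1 dpi and 2175 and 1670.7 at 5 dpi (limma, adjusted p = 4.01e-05 at 5 dpi). The mitotic genes Kif20a and Spc25 followed the same course, with 852 and 2170.8, and 1662.1 and 2555.6 at 5 dpi, against 0 and 0, and 0 and 3.6 in uninjured Foxj1-Olig2-tdT cells (limma, adjusted p = 2.46e-05 and 2.01e-05).

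Several such calls compare with the near-identical uninjured Foxj1-tdT pair. Taf13, a general transcription factor subunit gene, read 0.7 and 0.6 there, 562.9 and 807 at 1 dpi and 971.7 and 923.9 at 5 dpi (limma, adjusted p = 3.72e-05 at 1 dpi, and 0.00124 with the pair as 1 library). Ascc3, a DNA helicase gene, read 345.8 and 425.8 in uninjured Foxj1-Olig2-tdT cells, against 0 and 0.4 in that pair (limma, adjusted p = 0.000242 and 0.00588). Gng7 and Zbtb9 were listed at 0 in both libraries of the pair, and Galnt4 and Fkbp7 too. These genes kept the calls they were named for with the pair as 1 library. Among the genes named as lowest, H4c11, Plcl1 and Ccdc85a fell at 1 dpi in Foxj1-tdT cells, and with the pair as 1 library Plcl1 and Ccdc85a lost the call (limma, adjusted p = 0.125 and 0.0811). H4c11 belongs to a histone family with near-identical copies, so its reads are uncertain. At 5 dpi in Foxj1-tdT cells Gcat was listed at 0 in both libraries, against 107.5 and 122.2 uninjured (limma, adjusted p = 0.000117), while Ankrd37 and Entpd1 lost their calls with the pair as 1 library (limma, adjusted p = 0.174 and 0.066).

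For other genes named by the rule, values were at or near 0 in 1 or more groups. In uninjured cells Nuak1, Fzd1 and Fbxo5 read 0 to 1.0 in Foxj1-Olig2-tdT cells, against 101.4 to 243.9 in Foxj1-tdT cells. At 1 dpi Mex3b, Zfp609 and Fancm were listed at 0 in both Foxj1-Olig2-tdT libraries, against 39.3 to 176.5 in Foxj1-tdT cells, and Zfp609, Fancm and Efs were the lowest against uninjured Foxj1-Olig2-tdT cells as well. At 5 dpi in Foxj1-Olig2-tdT cells 1810010H24Rik, Ccdc85a and Xrra1 read 0 to 20.5, against 48.3 to 763.9 uninjured. Sgo1, a protector of chromosome cohesion, was listed at 0 in both uninjured Foxj1-Olig2-tdT libraries and read 100.9 and 139.8 at 1 dpi. Cdc25c, a phosphatase that starts mitosis, read 346.9 and 636.9 in Foxj1-Olig2-tdT cells at 5 dpi, against 27.7 and 1.0 in Foxj1-tdT cells, and Utp14b 196.9 and 90.7 against 29.6 and 13.0. Atp7b, a copper transporter gene, read 0 and 3.3 against 15.4 and 139.7 there. With the near-identical pair as 1 library Utp14b (limma, adjusted p = 0.0395, and 0.078 with the pair as 1) and Atp7b (0.0293 and 0.0706) lost these calls, and Efs (0.0486 and 0.0907) and, between the lines at 5 dpi, Ccdc85a (0.0239 and 0.0581) lost theirs. Of these named genes, Zbtb9, Fancm, Gcat, Utp14b, Atp7b, Galnt4, Entpd1, Cnn2, Kif20a and Xrra1 share their peak with the start of another coding gene.

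Mia, which encodes a small secreted protein and was the only marker on the cell type lists with such a peak, was lower in Foxj1-Olig2-tdT cells at each time. In Foxj1-Olig2-tdT cells it read 1880.5 and 1712.1 uninjured, 517.3 and 440.9 at 1 dpi and 91.3 and 54.8 at 5 dpi. Foxj1-tdT cells had 11344.9 and 11935.8, 3403.8 and 2123.1, and 8926.2 and 10053.6. The lines did not overlap at any time, and the lowest values were those of Foxj1-Olig2-tdT cells at 5 dpi. The log2 fold change between the lines was -2.70 ± 0.27 uninjured, -2.49 ± 0.27 at 1 dpi and -7.04 ± 0.27 at 5 dpi (limma, adjusted p = 0.000692, 0.0029 and 3.02e-06). Its peak (chr7:27178066-27181727) had 111 CPM in EP, 106 in ACNT, 109 in OPC and 145 in VP and also covers the start of Rab4b, so the openness cannot be assigned to Mia. Its promoter was unlike that of most members, with a GC content of 50.7% and a CG ratio of 0.32 in the RefSeq window.

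Dynlt1b and Gadd45b were higher in Foxj1-Olig2-tdT cells at 1 dpi. Dynlt1b, a dynein light chain gene with close copies whose reads may be split, read 5248.8 and 14205.3 in Foxj1-Olig2-tdT cells, against 1268.6 and 1064.7 in Foxj1-tdT cells (log2 fold change 2.89 ± 0.40, limma adjusted p = 0.00961). It was also higher uninjured and at 5 dpi, with log2 fold changes of 2.89 ± 0.40 and 2.38 ± 0.40. Gadd45b, a stress response gene, read 813.5 and 781.8 in Foxj1-Olig2-tdT cells, against 152 and 99.5 in Foxj1-tdT cells (log2 fold change 2.69 ± 0.43, limma adjusted p = 0.0191, and 0.0647 with the near-identical pair as 1 library).

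**Figure D5:**
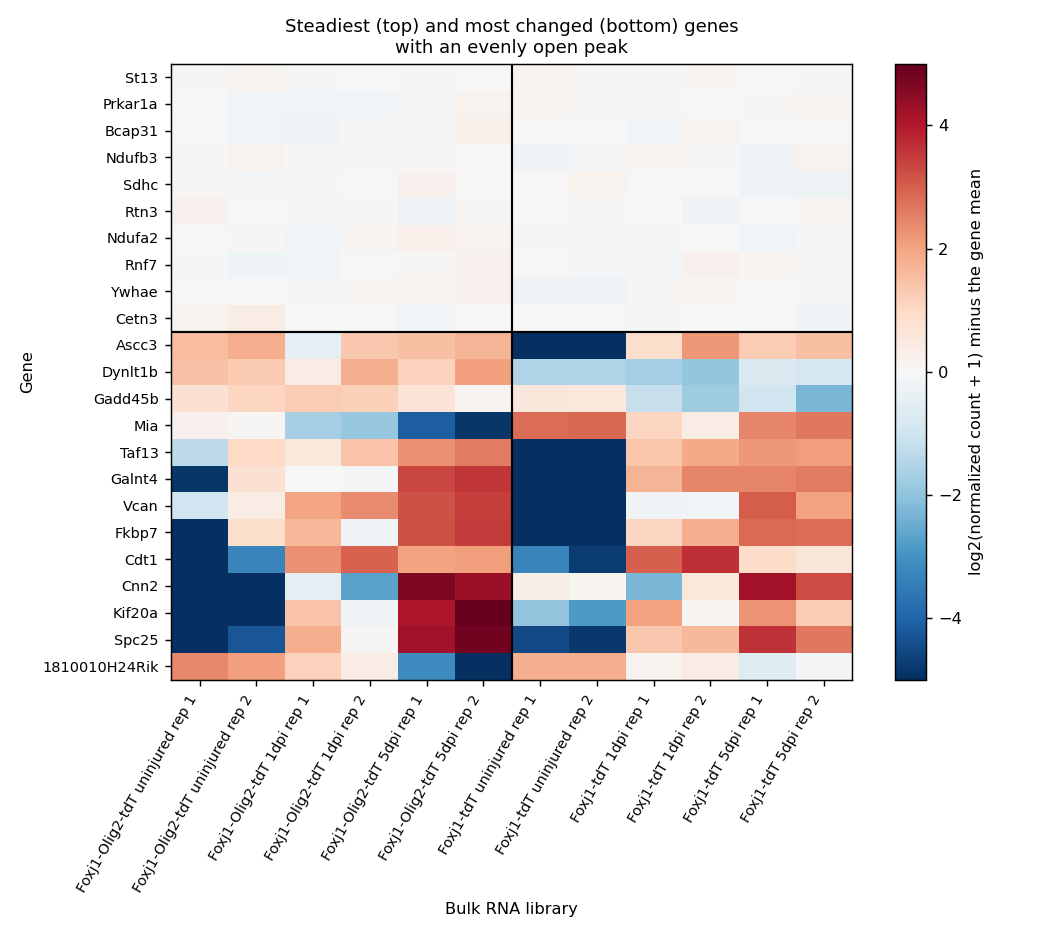
Heatmap of bulk RNA in the 12 libraries for the 10 steadiest genes and 13 of the most changed genes with an evenly open peak, as log2(value + 1) minus the gene's mean, with colours clipped at 5 in either direction. The steady genes stay between -0.27 and 0.36, while Mia and Vcan differ between lines and times.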

How the data were processed

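The authors deposited cut-site counts per peak and cell with class names (single-cell ATAC), UMI counts per gene and cell (single-cell RNA), and normalized values per gene (bulk RNA, unit signal, scaling not given in the sources used here). Tools listed in the submitters' processing notes are Bowtie2, Cell Ranger, Cell Ranger ATAC, deepTools and SAMtools, with build mm10 and no role or version. Peaks came from the deposited matrix, over all cells of 1 sample.

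Counts were summed per pool and scaled to CPM. Intervals are exact Poisson and cover counting error only. Gene starts came from RefSeq tables on GRCm38.p6. For 1167 of the 6241 genes the tables gave no strand, and either end stood in for the start. No genome was used, so peak sequences are not printed. No doublet caller was run, and whether the authors removed doublets is not given in the sources used here. Of the single-cell RNA cells, 2923 with 1 of 5 library codes were used and 362 with no code were not, so 362 columns of cells were left out. Library barcodes overlapped at 7 cell barcodes.

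Bulk values, as log2(value + 1), were tested in R 4.3.3 by limma 3.58.1 (trended empirical Bayes, 12 libraries, 6 group means, an F-test and 7 contrasts, Benjamini-Hochberg adjustment over all 15811 genes with at least 10 in at least 2 libraries). Fold changes are on that scale and understate low genes, and none is given where a library pair is at 0. The log2 values were computed from the deposited signal. Low values were whole multiples of a step (tolerance 0.051) in only 24.9% to 51.2% of cases, so reads were not recovered and depth is unknown. Column sums were 12601290 to 13878102. The fit was tested on simulated data. Python 3.11.15, pandas 2.3.3, numpy 2.4.6, scipy 1.17.1 and matplotlib 3.10.9 were used.

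The members and gene lists were chosen with earlier results of these data known. The rule for names took the 10 highest peaks at a start, the 5 highest at none, the 5 most even, 3 on each side of each limit, the 10 genes with the smallest SD, the 3 highest and 3 lowest called fold changes without overlap per contrast, up to 4 genes per list by peak level, and all immediate early genes and markers with such a peak. Of the genes next to a limit and of those taken per list, only some are printed, picked with their values seen. Genes of low RNA were ranked by peak level among those with a mean under 10, a limit set after the values were seen, because no gene was at 0 in all libraries. A gene that the rule names is not reported here. Alternatives changed the level, the ratio, the window, the pools, the pseudocount, the filter, the scaling, the replicate block and the libraries left out.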

Additional observations from a re-analysis of the deposited data

How the results depend on the processing

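Of 184 results recomputed under alternatives, 138 stayed within the spread or within 1.5 times, 46 moved and 0 reversed. The number of evenly open peaks was 2817 with a floor of 40 CPM, 1531 with a ratio of at most 1.5 and 1670 over 8 classes. Their share at a gene start was 88.5% with a floor of 10 CPM, 94.2% with 40, 90.9% with a ratio of at most 3, 91.0% with presence of a cut per cell and 94.4% over 8 classes. Genes that changed in any group numbered 1317 with a floor of 40 CPM (43.7% of 3015) and 682 with a ratio of at most 1.5 (44.5% of 1534). With the uninjured Foxj1-tdT libraries as 1 (their mean), a setting listed because earlier results had shown them alike, they numbered 1194. With that pair as 1, the genotype contrasts gave 61 uninjured, 14 at 1 dpi and 238 at 5 dpi, and the injury contrasts 218 at 1 dpi in Foxj1-Olig2-tdT cells and 596 and 400 at 1 and 5 dpi in Foxj1-tdT cells. The cause was not tested.

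Leaving out each library in turn gave 1197 to 2623 genes in the F-test, 61 to 549 (uninjured), 14 to 131 (1 dpi) and 116 to 566 (5 dpi) between the lines, 216 to 588 and 955 to 1680 after injury at 1 and 5 dpi in Foxj1-Olig2-tdT cells, and 606 to 1771 and 405 to 1502 in Foxj1-tdT cells. The lowest counts came without an uninjured Foxj1-tdT library, except at 5 dpi between the lines and at 5 dpi in Foxj1-Olig2-tdT cells, where they came without Foxj1-Olig2-tdT 5 dpi replicate 2. The spread of the other groups then stood in for that of the single remaining library. At these lowest counts the F-test called 22.6% of the members, against 23.5% of all genes, and the 5 dpi contrast between the lines 2.19%, against 3.64%.

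With the replicate number as a block the counts were 2114 in the F-test, 363, 49 and 378 between the lines, 390 and 1590 after injury in Foxj1-Olig2-tdT cells, and 1465 and 1209 in Foxj1-tdT cells. The numbers did not pair the libraries, as deviations of same-numbered libraries correlated at -0.0296 to 0.0222 over 15 pairs of groups.

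The gap in median range between all genes and the members was 0.58, and in settings chosen after seeing the data it was 0.29 with a pseudocount of 8, 0.65 after quantile normalization and 0.56 to 0.61 without single libraries. The median of all genes at 5 dpi in Foxj1-Olig2-tdT cells moved by 0.12 (log2) as deposited and -0.03 after quantile normalization, and fold changes there are not corrected for it. Low pool depth limits evenness most in VP, and 2 libraries a group limit every RNA test.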
